A study of Mus musculus with 12 samples.

Results

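Cholesterol synthesis and its control by SREBP2 were followed through 28 genes in mouse liver RNA. They are 20 enzymes of the mevalonate and sterol pathways, 4 genes of SREBP2 and its regulation, and 4 genes of sterol transport, storage and receptor turnover. The genes were chosen by name for their place in the pathway, out of the 55401 genes of the count table, and all 28 were among the 16523 genes that passed the filter on low counts. RNA came from C57BL/6 livers, labelled as those of males 6 to 8 weeks old, in 4 groups of 3 libraries, and all mice carried loxP-flanked Lpcat3 alleles (LPCAT3flox/flox). Cre MCD livers (labelled LKO-MCD) also carried cre and came from mice fed a methionine- and choline-deficient (MCD) diet for 8 weeks, which is used as a model of steatohepatitis. Cre control livers (LKO-NC) carried cre and came from mice on the control diet. Flox MCD livers (FLOX-MCD) and flox control livers (FLOX-NC) had no cre and came from mice on the MCD diet and on the control diet. The labels do not give the promoter that drives cre. All mice were fasted for 12 h before collection, a state that by itself lowers hepatic sterol and fatty acid synthesis. Lpcat3 encodes an acyltransferase that places polyunsaturated chains into phospholipids, and the study asked what it does in fatty liver. The labels do not state that each library is a separate animal, so p-values measure the spread between these libraries.

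On the MCD diet 9 of the 20 synthesis enzymes rose in cre livers and 3 of the 20 fell in flox livers, relative to the control diet. In cre livers 10 of the 28 genes rose and 0 fell (edgeR quasi-likelihood test, Benjamini-Hochberg adjusted p under 0.05 over all genes tested), against 3.73% of all genes tested that rose and 3.04% that fell. Fdps, which makes farnesyl diphosphate, and Sqle, the squalene epoxidase, had the largest log2 fold changes among them, at 2.42 and 2.30. In flox livers 3 of the 28 genes fell and 0 rose, against 2.63% of all genes that fell and 2.64% that rose, and the largest fall was that of Tm7sf2, a sterol C14 reductase, at -2.28. The median log2 fold change over the 28 genes was 0.93 in cre livers and -0.40 in flox livers, beside -0.01 and 0.01 over all genes tested. The negative flox median holds for counts: on the log2(FPKM + 1) scale it turned to 0.13, where the median of all genes was 0.30, so that relative to all genes it was -0.17. The test of the difference between these diet effects passed for 0 of the 28 genes, although 19 of them had an unadjusted p under 0.05, as had 8.98% of all genes, and the call rate over all genes in that test was 0.00605%.

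Cholesterol is made from acetyl-CoA through mevalonate, isoprenoid diphosphates, squalene and lanosterol, and the liver is a main site of its synthesis. SREBP2, the product of Srebf2, is held in the endoplasmic reticulum by SCAP and INSIG proteins when sterols are plentiful. When membrane sterol falls, SCAP escorts SREBP2 to the Golgi, where it is cleaved, and the released fragment switches on nearly every enzyme of the pathway together with genes of sterol uptake. It binds sterol regulatory elements, commonly next to sites for NF-Y, which recognises CCAAT.

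The libraries held 40883986 to 65516723 estimated counts. A single ribosomal RNA row took 5.6% to 43% of them, and mitochondrially encoded mRNAs took 6.26% to 30%. Lpcat3 was at 16.1 to 23.3 normalised CPM (counts scaled to library size) in 5 cre libraries and at 41.4 to 63.4 CPM in the 6 flox libraries. The remaining cre library went against its label, with 56.1 CPM of Lpcat3 and 23.2 FPKM of the full-length transcript, which was listed at 0 in the other 5. It is called the library labelled cre MCD 3, and the calls that change without it are named beside the results. All 12 libraries, labelled male, held Xist at 116 to 685 CPM and 0 counts of Y-linked genes. Every hepatocyte marker examined was present in all 12 libraries, with Alb at 34200 to 80300 CPM. In bulk liver RNA, fewer cells of a type and less RNA per cell cannot be told apart.

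Promoter sequences were available from RefSeq (GRCm38.p6, windows from 250 bases before to 50 after a start site) for 23 of the 28 genes. CCAAT stood on either strand in 21 of the 23, all but Acat2 and Scap, which is 91.3% of these genes, against 41.1% of all 27025 genes in the table and 42.5% of the 11545 of them that were tested here. TCACCCCAC, a form of the sterol regulatory element, was found in 1 of the 23 genes, Hmgcs1, against 0.614% of all genes, and TCACNCCAC likewise in Hmgcs1 alone, against 1.44%. The shorter CACCCCAC, which lies within TCACCCCAC, stood in Acat2 and Hmgcs1, against 3.3% of all genes. The promoters of 5 genes are shown 5′ to 3′ in lower case with these motifs, or their reverse complements, in capitals: Hmgcs1 because it holds the element, Idi1 and Dhcr7 because their diet responses had opposite signs in cre and flox livers without overlap of the libraries, Cyp51 as an enzyme that rose in cre livers, and Tm7sf2 as the enzyme that fell most in flox livers. A match describes these letters only and shows neither binding nor its absence.
Hmgcs1, chr13:119690101-119690400, plus strand: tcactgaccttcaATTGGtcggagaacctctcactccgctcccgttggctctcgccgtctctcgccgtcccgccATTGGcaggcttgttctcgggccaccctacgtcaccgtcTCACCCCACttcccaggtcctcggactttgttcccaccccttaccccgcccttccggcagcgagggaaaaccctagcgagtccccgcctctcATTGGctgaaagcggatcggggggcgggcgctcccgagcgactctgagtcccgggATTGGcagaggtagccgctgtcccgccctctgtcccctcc
Idi1, chr13:8885356-8885655, plus strand: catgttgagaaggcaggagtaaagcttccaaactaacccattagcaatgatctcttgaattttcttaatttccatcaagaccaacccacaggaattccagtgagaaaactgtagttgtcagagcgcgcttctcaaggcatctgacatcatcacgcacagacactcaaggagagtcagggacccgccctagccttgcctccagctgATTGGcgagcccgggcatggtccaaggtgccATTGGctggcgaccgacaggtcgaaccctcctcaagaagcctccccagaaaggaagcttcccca
Cyp51, chr5:4104648-4104947, minus strand: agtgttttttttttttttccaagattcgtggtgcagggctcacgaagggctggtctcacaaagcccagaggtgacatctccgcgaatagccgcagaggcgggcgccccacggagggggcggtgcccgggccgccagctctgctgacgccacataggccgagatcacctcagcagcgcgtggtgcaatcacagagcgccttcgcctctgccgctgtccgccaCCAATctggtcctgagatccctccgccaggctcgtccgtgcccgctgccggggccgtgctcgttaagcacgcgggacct
Tm7sf2, chr19:6067801-6068100, minus strand: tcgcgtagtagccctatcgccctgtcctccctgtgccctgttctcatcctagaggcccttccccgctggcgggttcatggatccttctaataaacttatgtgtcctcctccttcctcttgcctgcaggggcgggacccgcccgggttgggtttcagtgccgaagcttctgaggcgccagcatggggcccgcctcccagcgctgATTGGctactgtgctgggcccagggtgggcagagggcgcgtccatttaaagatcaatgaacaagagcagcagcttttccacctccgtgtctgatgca
Dhcr7, chr7:143829964-143830263, plus strand, the last of its 3 windows: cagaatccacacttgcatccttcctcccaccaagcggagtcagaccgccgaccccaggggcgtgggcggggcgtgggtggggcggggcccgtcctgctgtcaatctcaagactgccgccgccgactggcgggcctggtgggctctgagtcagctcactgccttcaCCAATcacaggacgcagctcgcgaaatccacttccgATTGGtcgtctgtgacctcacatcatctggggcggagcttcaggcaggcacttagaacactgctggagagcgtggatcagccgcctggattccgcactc
The Hmgcs1 window holds 4 CCAAT matches, of which 2 lie upstream and 2 downstream of the element. The matches of Idi1 begin 14 and 45 bases before the start site, those of Dhcr7 49 and 85 bases before it, and the single ones of Cyp51 and Tm7sf2 29 and 47 bases before it.

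Compared per length, the 28 genes covered a wide range of levels. Mean FPKM over the 12 libraries was highest for Hmgcs1 (96), Ebp (66.8), Insig2 (48.4) and Fdps (43.2), and lowest for Lss (2.35), Ggps1 (1.46) and Mylip (1.2). In cre MCD livers Fdps stood next below Hmgcs1, at 97.7 and 160 FPKM, whereas in cre control, flox MCD and flox control livers Ebp, Hmgcs1 and Insig2 held the highest 3 levels. The library values behind these means are shown for all 28 genes in the map by library.

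**Figure D1:**
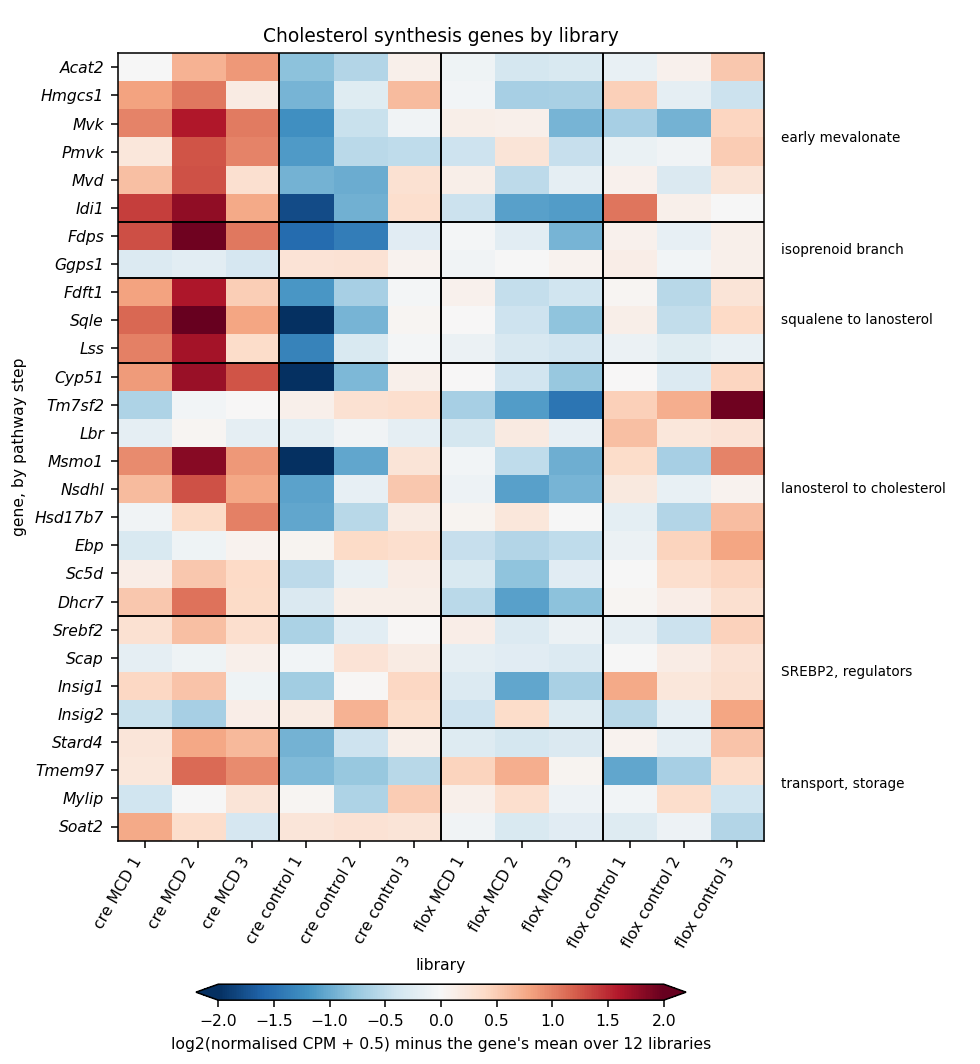
Level of each of the 28 genes (rows, by pathway step) in each of the 12 libraries (columns), as log2(normalised CPM + 0.5) minus the gene's mean over the 12 libraries; colours run from -2 (blue) to 2 (red) and values beyond are drawn at the ends. Most synthesis enzymes are red in the 3 cre MCD libraries and blue in cre control 1 and 2, while Ggps1, Lbr and Scap vary little in colour.

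The early mevalonate steps were carried by 6 genes, of which 3 rose in cre MCD livers and 0 passed in flox livers. Mvk, the kinase that adds the initial phosphate to mevalonate (ENSMUSG00000041939, chr5:114444269-114460591 in GRCm38), had 9.75, 15 and 10 CPM in cre MCD livers, against 1.69, 3.28 and 4.39 CPM in cre control livers. Every cre MCD library lay above every cre control library, and the log2 fold change was 1.89 ± 0.46 (SE, edgeR adjusted p = 0.0286). In flox livers Mvk had 5.05, 5.02 and 2.2 CPM on MCD and 2.73, 2.18 and 6.44 CPM on the control diet, and these groups overlapped (0.11 ± 0.45, adjusted p = 0.941). Pmvk, the next kinase of the pathway (chr3:89454541-89469013), had 6.91, 14.7 and 12.1 CPM in cre MCD livers, against 2.41, 3.88 and 3.96 CPM in cre control livers. These groups did not overlap either, and the log2 fold change was 1.72 ± 0.34 (adjusted p = 0.0102). Its flox libraries overlapped, at 4.12 to 7.1 CPM on MCD and 5.28 to 8.53 CPM on the control diet (-0.32 ± 0.33, adjusted p = 0.693).

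Idi1 interconverts the isomers of isopentenyl diphosphate that are joined into longer chains (ENSMUSG00000058258, chr13:8885501-8892451). Its level was 17.1, 22.5 and 10.9 CPM in cre MCD livers, against 1.46, 2.96 and 8.03 CPM in cre control livers. In flox livers it was 4.5, 2.67 and 2.61 CPM on MCD, against 13.7, 6.76 and 6.25 CPM on the control diet. All cre MCD libraries lay above all cre control libraries and all flox MCD libraries below all flox control libraries. The log2 fold change was 2.02 ± 0.52 in cre livers (adjusted p = 0.0357) and -1.45 ± 0.51 in flox livers (adjusted p = 0.129), and their difference of 3.47 ± 0.73 was the largest among the 28 genes (adjusted p = 0.288). Of the 75-base words of its main transcript, 20.7% also occur in other genes, foremost a processed pseudogene listed at 0.0477 FPKM.

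Hmgcs1 condenses acetoacetyl-CoA with acetyl-CoA to HMG-CoA (ENSMUSG00000093930, chr13:119690379-119708260) and was the most abundant of the 28 per length. It had 618, 738 and 396 CPM in cre MCD livers, against 186, 300 and 550 CPM in cre control livers, where the third library overlapped the MCD range. The log2 fold change was 0.76 ± 0.38 in cre livers (adjusted p = 0.231) and -0.44 ± 0.37 in flox livers (adjusted p = 0.619), so neither diet effect passed. Mvd, which decarboxylates diphosphomevalonate, was at 6.46 to 13.0 CPM in cre MCD livers, against 2.33 to 6.41 CPM in cre control livers. These did not overlap, and the log2 fold change was 1.30 ± 0.39 (adjusted p = 0.0636). Acat2, the cytosolic acetoacetyl-CoA thiolase, was at 16.8 to 31.1 CPM in cre MCD livers, against 9.31 to 18.1 CPM in cre control livers (0.97 ± 0.29, adjusted p = 0.0581). Its counts are uncertain, because 40.7% of the 75-base words of its transcript occur in other genes, foremost Acat3, which averaged 99.9 FPKM.

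At the isoprenoid branch point the 2 genes measured went apart. Fdps (ENSMUSG00000059743, chr3:89093588-89101959), which feeds farnesyl diphosphate to sterols and to other isoprenoids, had 125, 198 and 107 CPM in cre MCD livers, against 17.3, 19.3 and 43.5 CPM in cre control livers. The groups were far from overlapping, and the log2 fold change of 2.42 ± 0.37 had the smallest adjusted p of the 28 genes (0.00193). In flox livers it had 49.9, 43.9 and 26.6 CPM on MCD and 53.9, 45.5 and 54.9 CPM on the control diet, with overlap (-0.36 ± 0.35, adjusted p = 0.67). Fdps was called in cre livers whichever of the 12 libraries was left out. Other genes hold 75.1% of the 75-base words of its main transcript, foremost Gm43738, an overlapping gene on the same strand that averaged 0.0448 FPKM. Ggps1, which makes geranylgeranyl diphosphate for protein prenylation, had 4.97, 5.22 and 4.71 CPM in cre MCD livers, against 7.5, 7.55 and 6.39 CPM in cre control livers. Its cre MCD libraries were all below the cre control ones, but the log2 fold change of -0.52 ± 0.19 did not pass (adjusted p = 0.103). It overlaps Arid4b on the opposite strand.

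All 3 enzymes between farnesyl diphosphate and lanosterol rose in cre MCD livers, and their log2 fold changes in flox livers lay between -0.44 and -0.11 without passing. Sqle, a rate-limiting oxidase of the pathway (ENSMUSG00000022351, chr15:59315077-59331192), had 33.8, 69.7 and 26.4 CPM in cre MCD livers, against 3.37, 7.7 and 15.4 CPM in cre control livers. No library of one diet reached the range of the other (2.30 ± 0.49, adjusted p = 0.0162). Fdft1, the squalene synthase that commits farnesyl diphosphate to sterols, had 116, 204 and 92.8 CPM in cre MCD livers, against 29.0, 41.4 and 64.3 CPM in cre control livers (1.62 ± 0.35, adjusted p = 0.0161). It overlaps Ctsb on the opposite strand over 774 bases, and since the sources used here do not state strand-aware counting, reads of the 2 genes there cannot be told apart. Lss, which closes squalene epoxide into lanosterol, had 32.9, 52.1 and 21 CPM in cre MCD livers, against 6.1, 12.9 and 15.6 CPM in cre control livers (1.62 ± 0.34, adjusted p = 0.0147). For both genes the cre groups did not overlap. In flox livers Lss overlapped between diets, at 12.2 to 14.8 CPM on MCD and 13.5 to 14.8 CPM on the control diet.

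**Figure D2:**
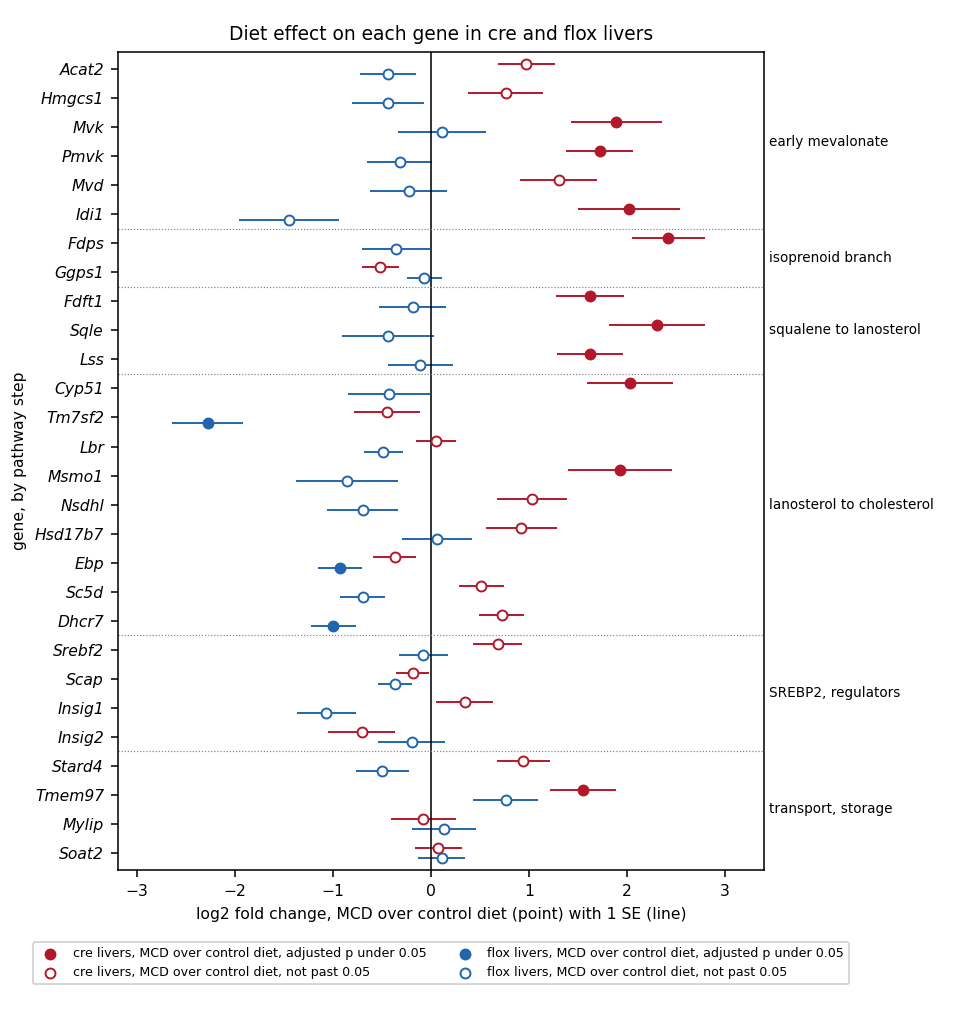
Log2 fold change of MCD over control diet (horizontal axis, point with 1 SE) for each of the 28 genes (vertical axis, by pathway step) in cre livers (red) and flox livers (blue); filled points have an edgeR adjusted p under 0.05. The 10 filled red points all lie right of 0, from 1.55 (Tmem97) to 2.42 (Fdps), and the 3 filled blue points lie left of 0, at -2.28 (Tm7sf2), -1.0 (Dhcr7) and -0.93 (Ebp).

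Of the 9 genes from lanosterol to cholesterol, Cyp51 and Msmo1 rose in cre livers, while Tm7sf2, Ebp and Dhcr7 fell in flox livers, and the difference of the diet effects passed for 0 of the 9 in edgeR (lowest adjusted p = 0.21). Cyp51, the lanosterol 14-demethylase (ENSMUSG00000001467, chr5:4081145-4104746), had 178, 327 and 238 CPM in cre MCD livers, against 23.1, 52.8 and 106 CPM in cre control livers. All 3 cre MCD libraries were above the cre control range (2.03 ± 0.44, adjusted p = 0.0169). Its flox libraries overlapped, at 58.4 to 99.2 CPM on MCD and 81.9 to 134 CPM on the control diet (-0.43 ± 0.42, adjusted p = 0.674). Msmo1, the C4-methylsterol oxidase, had 94.4, 173 and 89.8 CPM in cre MCD livers, against 11.5, 23.6 and 58.3 CPM in cre control livers. These groups did not overlap, and the log2 fold change was 1.93 ± 0.53 (adjusted p = 0.0455). Msmo1 was called in 5 of the 12 fits that each left out a library, and like Mvk it lost its call without the library labelled cre MCD 3.

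Tm7sf2, a sterol C14 reductase of the endoplasmic reticulum (ENSMUSG00000024799, chr19:6062821-6068373), had 22.3, 16.1 and 12.6 CPM in flox MCD livers, against 49.8, 59.2 and 139 CPM in flox control livers. The groups did not overlap, and flox control 3 stood far above the other 2 libraries of its group. The log2 fold change was -2.28 ± 0.36 (adjusted p = 0.00231), was -1.68 at its smallest when a library was left out, and passed in all 12 such fits. In cre livers Tm7sf2 had 23.0, 34.3 and 35.6 CPM on MCD, against 38.2, 44.1 and 45.1 CPM on the control diet. These were again all lower on MCD, but by a change that did not pass (-0.45 ± 0.34, adjusted p = 0.448). Tm7sf2 was the only enzyme besides Ggps1 whose MCD libraries were all below the control libraries in cre livers. It overlaps Vps51 on the same strand over 532 bases.

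Ebp, the sterol isomerase also known as emopamil binding protein (ENSMUSG00000031168, chrX:8185329-8193512), had 96.1, 87.4 and 93.1 CPM in flox MCD livers, against 121, 179 and 228 CPM in flox control livers (-0.93 ± 0.22, adjusted p = 0.0268). The groups did not overlap, and the call was lost without flox control 2 or 3 or any of the 3 flox MCD libraries (adjusted p up to 0.105). In cre livers the diet groups of Ebp overlapped, at 107 to 138 CPM on MCD and 137 to 172 CPM on the control diet (-0.37 ± 0.22, adjusted p = 0.329). Dhcr7, the reductase of the last step of one branch of the pathway (ENSMUSG00000058454, chr7:143823145-143848410), had 14.1, 9.4 and 11.5 CPM in flox MCD livers, against 21.1, 22.6 and 25.9 CPM in flox control livers. The MCD libraries were all lower (-1.0 ± 0.23, adjusted p = 0.0217), and the call was lost without flox control 2, flox MCD 2 or flox MCD 3 (adjusted p up to 0.1). In cre livers Dhcr7 had 30.3, 44.3 and 27.0 CPM on MCD, against 16.8, 22.3 and 22.4 CPM on the control diet. Here the MCD libraries were all higher, but the change did not pass (0.72 ± 0.23, adjusted p = 0.0704). The difference of its diet effects was 1.72 ± 0.32 (adjusted p = 0.214).

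The other 4 genes of these steps passed in neither genotype. Nsdhl, the C4 decarboxylating dehydrogenase, was at 32.1 to 50 CPM in cre MCD livers, against 9.49 to 29.8 CPM in cre control livers, without overlap (1.03 ± 0.36, adjusted p = 0.103). Sc5d, which introduces the C5 double bond, was at 121 to 181 CPM in flox MCD livers, against 210 to 286 CPM in flox control livers, again without overlap (-0.70 ± 0.23, adjusted p = 0.106). Hsd17b7, the 3-keto reductase, had overlapping groups in both genotypes, with log2 fold changes of 0.92 ± 0.36 in cre livers and 0.06 ± 0.36 in flox livers (adjusted p of 0.137 and 0.964). Lbr, a nuclear envelope protein with the same C14 reductase activity as Tm7sf2, had 7.64 to 11.3 CPM in flox MCD livers, against 11.7 to 15.2 CPM in flox control livers. The libraries did not overlap, and the change of -0.49 ± 0.20 did not pass (adjusted p = 0.19).

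**Figure D3:**
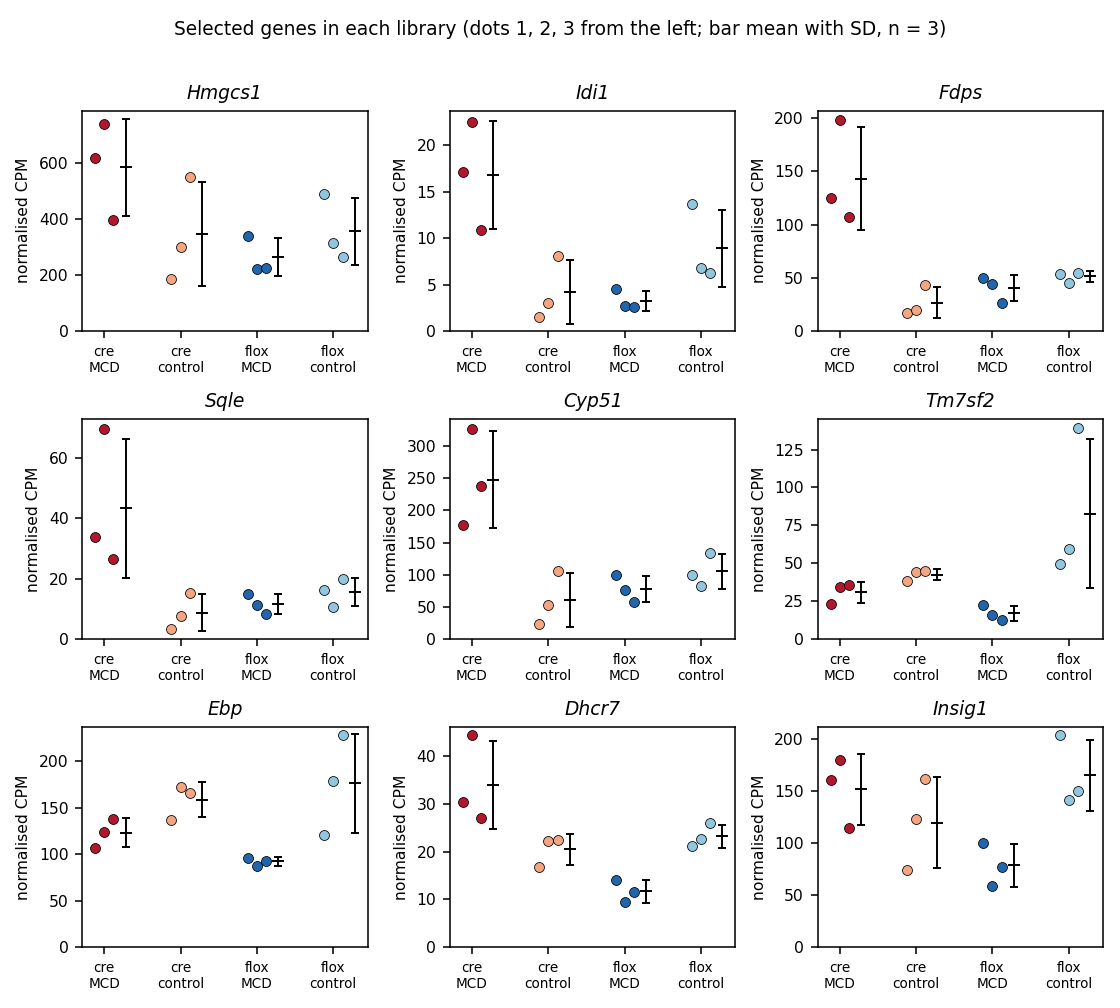
Normalised CPM (vertical axis, linear from 0) of 9 genes in each library, by group; dots are libraries 1, 2 and 3 from the left, and the bar beside them is the mean with SD (n = 3). Fdps, Sqle and Cyp51 are highest in cre MCD livers without overlap with cre control livers, while Tm7sf2, Ebp, Dhcr7 and Insig1 are lower in flox MCD livers than in flox control livers without overlap.

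Of SREBP2 and its regulators, 0 of 4 genes passed in edgeR in either genotype. Srebf2 (ENSMUSG00000022463, chr15:82147181-82205379) had 33.3, 41.0 and 34.2 CPM in cre MCD livers, against 17.2, 23.1 and 27.3 CPM in cre control livers. The cre MCD libraries were all higher, but the change did not pass (0.68 ± 0.25, adjusted p = 0.111), and in flox livers it was -0.08 ± 0.25 (adjusted p = 0.92). Insig1, itself a target of SREBP2 and its retention factor, had 100, 58.6 and 76.8 CPM in flox MCD livers, against 204, 141 and 150 CPM in flox control livers. These did not overlap, and the log2 fold change of -1.07 ± 0.30 lay just outside the threshold (adjusted p = 0.0534). In cre livers Insig1 had 160, 180 and 114 CPM on MCD and 74.0, 123 and 161 CPM on the control diet, with overlap (0.34 ± 0.29, adjusted p = 0.521). Insig2, the form whose RNA is raised by fasting in mouse liver, was at 93.4 to 163 CPM in cre MCD livers, against 166 to 240 CPM in cre control livers, a change that did not pass (-0.71 ± 0.34, adjusted p = 0.214). Scap, the escort, had log2 fold changes of -0.19 ± 0.17 in cre livers and -0.37 ± 0.17 in flox livers (adjusted p of 0.525 and 0.239).

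Srebf2 RNA was made up of more than its full-length transcript in these tables. The full-length form (ENSMUST00000023100, 19 exons, 5077 bases) and a short form that keeps an intron and ends early (ENSMUST00000230105, 4 exons, 1981 bases) accounted for 46.9% and 49.3% of its FPKM. Transcripts that keep an intron took 52.1%, 59.6% and 63.3% of Srebf2 FPKM in cre MCD livers, against 44.8%, 52.1% and 30.2% in cre control livers. In flox livers they took 56.7%, 64.5% and 62.7% on MCD, against 28.6%, 27.8% and 43.1% on the control diet. The MCD share was higher without overlap in flox livers and met the control range in cre livers at 52.1%. All Srebf2 transcripts not classed as keeping an intron were together at 3.75, 4.69 and 3.87 FPKM in cre MCD livers. In cre control livers they were at 1.91, 2.11 and 3.16 FPKM, without overlap. In flox livers they were at 3.98, 2.59 and 2.86 FPKM on MCD and 2.19, 2.43 and 4.58 FPKM on the control diet, which overlapped. FPKM over all genes also stood higher on MCD, with median log2(FPKM + 1) changes of 0.15 in cre and 0.30 in flox livers. The FPKM levels between diets hold that shift, whereas the shares are taken within a library. These shares and levels are a description of the assembled transcripts and were not tested.

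**Figure D4:**
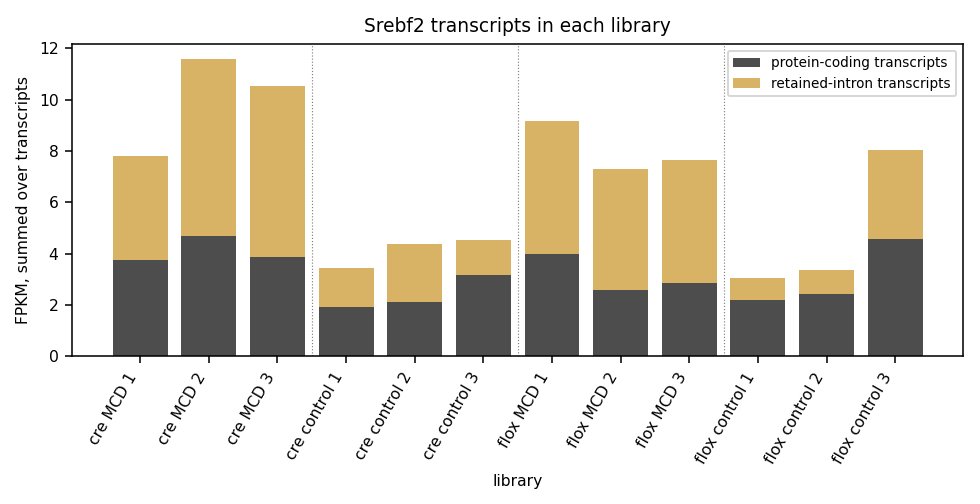
FPKM of Srebf2 in each of the 12 libraries, stacked, with its retained-intron transcripts in tan (upper part). The grey lower part, named protein-coding in the legend, sums all its transcripts not classed as retained-intron. Retained-intron transcripts reach 4.07 to 6.91 FPKM in cre MCD and 4.7 to 5.2 FPKM in flox MCD livers, against 1.37 to 2.29 FPKM in cre control and 0.879 to 3.48 FPKM in flox control livers. FPKM over all genes is also higher on MCD, by medians of 0.15 in cre and 0.30 in flox livers on the log2(FPKM + 1) scale.

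For some other genes the split between transcripts was nearly all or none from library to library, so only gene totals were compared. Others, such as Cyp51 and Sc5d, were listed almost wholly as 1 transcript, at no less than 99.2% and 99.8% of the gene. Lss was listed mostly as a retained-intron transcript (ENSMUST00000160671, 22 exons, 6992 bases), at 76.5% to 96.5% of the gene. The 2 main Dhcr7 transcripts were each listed at 0 in 5 of the 12 libraries, and the longer main Fdps transcript (ENSMUST00000196709) in 4. In the library labelled cre MCD 3, a Tm7sf2 transcript marked for nonsense-mediated decay (ENSMUST00000161090) stood at 16.3 FPKM, or 64.6% of the gene, while it was listed at 0 in the other 11 libraries.

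Among the genes of sterol transport, storage and receptor turnover, Tmem97 was the 1 of 4 that rose. Tmem97, an endoplasmic reticulum protein also known as the sigma-2 receptor (ENSMUSG00000037278, chr11:78541817-78550777), had 62.0, 117 and 102 CPM in cre MCD livers, against 28.6, 31.1 and 35.9 CPM in cre control livers. The cre groups did not overlap (1.55 ± 0.34, adjusted p = 0.0173). In flox livers it also stood higher on MCD, at 72.0, 87.7 and 55.2 CPM, against 25.6, 33.2 and 67.6 CPM on the control diet, with overlap through flox control 3 (0.76 ± 0.33, adjusted p = 0.228). Without flox control 3 its flox change passed (1.29, adjusted p = 0.0184), and limma on the log2(FPKM + 1) scale also called it (1.35, adjusted p = 0.0469). Stard4, a cytosolic sterol carrier (ENSMUSG00000024378), had 41.7, 61.0 and 55.7 CPM in cre MCD livers, against 18.1, 26.4 and 38.2 CPM in cre control livers (0.94 ± 0.27, adjusted p = 0.0526). In flox livers Stard4 had 29.4, 27.5 and 28.9 CPM on MCD, against 37.3, 31.2 and 52.9 CPM on the control diet (-0.50 ± 0.27, adjusted p = 0.352). Its libraries thus separated upwards in cre livers and downwards in flox livers, with neither change past the threshold. Mylip, the ligase that marks lipoprotein receptors for degradation, and Soat2, which esterifies cholesterol in the liver, had log2 fold changes between -0.08 and 0.13 in both genotypes.

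Counted over the pathway, 15 of the 28 genes had all cre MCD libraries above all cre control libraries (16.4% of all genes did), and 9 had all flox MCD libraries below all flox control libraries (10.3% of all genes). The sign of the diet effect was negative in flox and positive in cre livers for 18 of 28 genes, or 64.3%, and for 15 of the 20 enzymes, or 75%, while 16.2% of all genes showed that pair of signs. On the log2(FPKM + 1) scale, where 15.8% of all genes were negative in flox livers, the pair of signs was seen in 6 of the 28 genes and 5 of the 20 enzymes, against 5.39% of all genes. Taken relative to the all-gene medians of that scale, it was seen in 16 of the 28 and 14 of the 20, against 14.1% of all genes. This opposite response is the pattern by which the set of genes was described, and the control libraries of each genotype enter only its own effect. By step, the median log2 fold change in cre and flox livers was 1.51 and -0.38 for the 6 early mevalonate genes, and 1.62 and -0.19 for the 3 genes from farnesyl diphosphate to lanosterol. For the 9 later sterol genes it was 0.72 and -0.70, and for SREBP2 and its regulators 0.08 and -0.29. It was 0.95 and -0.21 for the 2 branch point genes, and 0.50 and 0.12 for the 4 genes of transport, storage and receptor turnover, so that the last step was positive in both genotypes. The summed level of the 20 enzymes was 1720, 2470 and 1620 CPM in cre MCD livers, against 671, 965 and 1440 CPM in cre control livers. In flox livers it was 1040, 771 and 784 CPM on MCD, against 1320, 1160 and 1480 CPM on the control diet. The sums did not overlap between diets in either genotype, and cre control 3 lay within the flox control range while cre control 1 and 2 were below it.

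**Figure D5:**
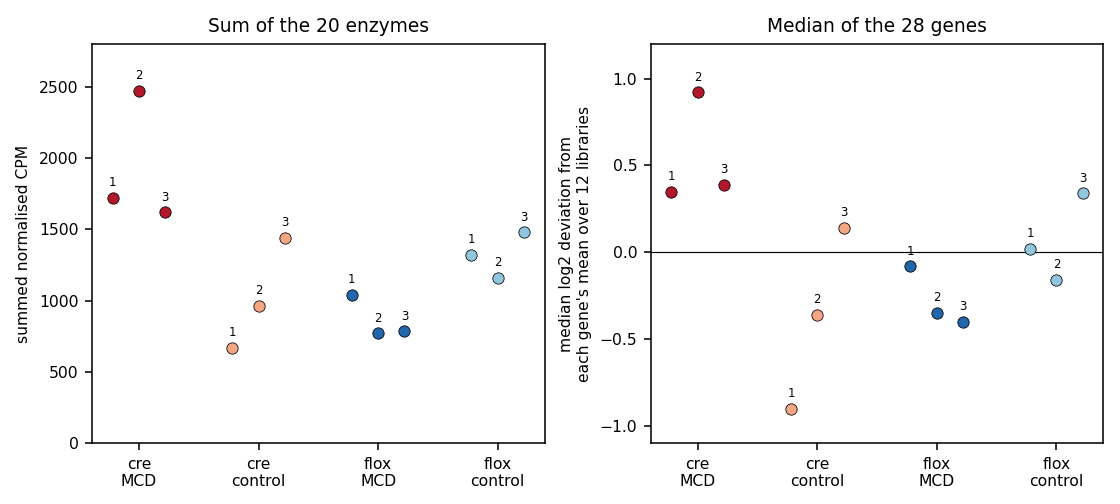
Summed normalised CPM of the 20 enzymes (left, linear axis from 0) and the median over the 28 genes of each gene's log2 deviation from its mean over 12 libraries (right), for each library (numbered dots) by group. Cre MCD libraries are highest at 1620 to 2470 CPM, and the cre control libraries spread from 671 to 1440 CPM, or -0.90 to 0.14 in median deviation.

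The cre result leaned on particular libraries. Without cre MCD 2, the library with the highest enzyme sum, 1 gene (Fdps) was called higher in place of 10, and without cre control 1 or cre control 2 the count was 5 or 3, whereas without cre control 3 it was 14. Without the library labelled cre MCD 3 it was 8. In flox livers the count of genes called lower was 1 without flox control 2, flox MCD 2 or flox MCD 3, and the gene was Tm7sf2 each time. Mitochondrially encoded mRNAs took 25.4% and 30% of the counts in cre control 1 and 2, the cre libraries with the lowest enzyme sums, against 14.9% in cre control 3 and 7.39% to 10.9% in cre MCD livers. Their part in the result was not tested. On the log2(FPKM + 1) scale Tm7sf2 was the 1 gene called lower in flox livers, and Ebp and Dhcr7 were at -0.35 and -0.37 there (limma adjusted p of 0.417 and 0.293).

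The direct comparison of genotypes on the MCD diet had cre above flox for 24 of the 28 genes, against 48.9% of all genes, and 20 had all cre MCD libraries above all flox MCD libraries, against 8.13% of all genes. The median log2 fold change, cre over flox, was 0.91 (-0.01 over all genes), and 19 of the 28 had an unadjusted p under 0.05, as had 8.33% of all genes. After adjustment 0 passed in edgeR (0.0121% of all genes did). Dhcr7, at 1.54 ± 0.23, lay at the threshold without passing it (adjusted p = 0.05). It passed when the library labelled cre MCD 3 was left out, at 1.68 (adjusted p = 0.0498), or flox control 3, at 1.54 (adjusted p = 0.0438). Fdps was at 1.84 ± 0.36 (adjusted p = 0.125). Limma voom called Dhcr7 alone, and DESeq2 called 9 of the 28. Over all genes in this comparison, limma voom called 2 higher and 10 lower of 16523. DESeq2 called 67 higher and 103 lower of 26143. For the difference of the diet effects, where edgeR and limma voom called 0 of the 28, DESeq2 called 11: Idi1, Fdps, Dhcr7, Cyp51, Sqle, Pmvk, Msmo1, Sc5d, Tm7sf2, Fdft1 and Stard4. DESeq2 also called more genes overall in that test, 57 higher and 41 lower, where edgeR called 0 higher and 1 lower.

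On the control diet cre livers were mostly below flox livers, and the change passed for 0 of the 28 genes (0.0424% of all genes passed) in edgeR, limma voom and DESeq2. The median log2 fold change was -0.43 (-0.01 over all genes), 24 of 28 values were negative, against 50.9% of all genes, and 5 had an unadjusted p under 0.05, as had 7.2% of all genes. Pmvk, Fdps, Tm7sf2 and Lbr had all cre control libraries below all flox control libraries, with log2 fold changes of -0.92 ± 0.33, -0.94 ± 0.35, -0.96 ± 0.34 and -0.55 ± 0.20 (adjusted p = 0.657 each). Soat2 was the reverse, at 29.6 to 30.5 CPM in cre control livers, against 16.4 to 23.2 CPM in flox control livers (0.57 ± 0.24, adjusted p = 0.676). Thus 4 of the 28 genes separated downwards and 1 upwards, where 827 and 951 of all 16523 genes tested did so. The cre control libraries also enter the cre diet effect, so that these values and the diet effects are not independent.

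Neighbouring pathways were read from further lists. The lipogenic targets of SREBP1 fell in flox MCD livers for 5 of 12 genes (median -1.03), and in cre MCD livers for 1 of 12 (median 0.24). Scd1, the stearoyl-CoA desaturase, had 48.0, 63.6 and 172 CPM in flox MCD livers, against 2300 to 2460 CPM in flox control livers (-4.65 ± 0.94, adjusted p = 0.011). It also fell in cre livers, to 25.3, 29.4 and 391 CPM on MCD, against 1140 to 2710 CPM in cre control livers (-3.74 ± 0.90, adjusted p = 0.0282). The 391 CPM belonged to the library labelled cre MCD 3, without which the change was -6.18 (adjusted p = 0.000348). Fasn, Acly and Elovl6, which build and elongate fatty acids, fell in flox livers by 1.74, 1.49 and 1.65 on the log2 scale (adjusted p of 0.0121, 0.00518 and 0.00455). In cre livers Fasn averaged 56.2 ± 28.3 CPM on MCD and 50.7 ± 18.1 CPM on the control diet (SD, n = 3) and did not pass (0.15 ± 0.35, adjusted p = 0.841). The difference of the diet effects was 1.89 ± 0.50 for Fasn and 1.81 ± 0.40 for Elovl6, and neither passed (adjusted p of 0.361 and 0.29). Of 10 genes of SREBP processing and sterol-dependent degradation, Srebf1, which encodes SREBP1, fell in flox livers (-1.45 ± 0.32, adjusted p = 0.0189).

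Of 5 electron donors of the sterol oxidases, Cyb5b rose in cre livers (0.87 ± 0.19, adjusted p = 0.0183). Of 12 users of isoprenoids outside the sterol path, Dhdds, which makes dolichol precursors, rose in cre livers (1.0 ± 0.25, adjusted p = 0.0306), and Rabggta, a subunit of the Rab geranylgeranyl transferase, fell there (-0.67 ± 0.16, adjusted p = 0.0297). Of 7 genes of LXR and cholesterol efflux, Pltp, the phospholipid transfer protein, fell in both genotypes, to 3.79 to 6.17 CPM in cre MCD livers, against 37.9 to 65.0 CPM in cre control livers, and to 3.12 to 8.97 CPM in flox MCD livers, against 15.6 to 31.1 CPM in flox control livers. Its log2 fold changes were -3.2 ± 0.40 and -1.76 ± 0.38 (adjusted p of 0.000584 and 0.0158). Of 11 genes of lysosomal and intracellular cholesterol transport, Nceh1, a cholesteryl ester hydrolase, rose in cre livers (1.2 ± 0.34, adjusted p = 0.0498), and Gramd1a, a sterol transfer protein, fell there (-1.27 ± 0.28, adjusted p = 0.0178). Nceh1 was also higher on MCD in flox livers, at 36.8, 86.3 and 57.9 CPM, against 18.4, 26.4 and 33 CPM on the control diet. Those flox libraries did not overlap, although 0 of the 11 genes passed in flox livers.

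When the library labelled cre MCD 3 was left out, Dhdds and Pltp passed in cre livers, and Cyb5b, Rabggta, Nceh1 and Gramd1a did not (edgeR adjusted p of 0.0672, 0.0892, 0.211 and 0.0716). In that fit Nceh1 passed in flox livers instead, at 1.22 (edgeR adjusted p = 0.0257).

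Markers of the liver's cell types moved with the diet beside these results. Summed hepatocyte markers were 92500 to 106000 CPM in cre MCD, 69500 to 92000 in cre control, 52700 to 74600 in flox MCD and 60400 to 115000 CPM in flox control livers, with 3 of 10 markers lower in flox livers and 1 of 10 lower in cre livers. Of 10 macrophage markers, 5 rose in flox livers (Cd68, Lyz2, Trem2, Gpnmb and Ccr2). Itgax (1.89), Vsig4 (0.01), Csf1r (-0.01), Adgre1 (-0.15) and Clec4f (-0.62, log2 fold changes) did not pass there. The 10 together summed to 138 to 269 CPM in flox MCD livers, against 106 to 154 CPM in flox control livers. In cre livers 1 of 10 rose (Gpnmb, at 0 in 3 libraries), and the sums were 87.7 to 126 CPM on MCD and 99.2 to 124 CPM on the control diet. Stellate cell markers rose for 2 of 7 in flox and 1 of 7 in cre livers, cholangiocyte markers for 0 and 1 of 5 (Epcam) and endothelial markers for 0 and 1 of 5 (Kdr), and lymphocyte markers summed to at most 2.75 CPM, with Cd3e at 0 in 4 libraries and Cd79a in 1. Over all genes, 2.64% rose and 2.63% fell in flox livers, and 3.73% rose and 3.04% fell in cre livers. The part of these marker shifts in the enzyme results was not tested.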

How the data were processed

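Poly(A) RNA of mouse liver was sequenced from 12 SMARTER libraries, per the labels' protocols. The deposited count tables hold estimated counts, as whole numbers, per gene and per transcript. The deposited expression tables name no unit and were read as FPKM made by the authors, since their values times length follow the counts. The submitters' processing notes name cutadapt, FastQC, HISAT2, StringTie, edgeR and mm10, without versions or order. Whether counting used strand is not given in the sources used here. Genes were filtered by filterByExpr and scaled by TMM, and 1 quasi-likelihood model with 4 groups was fitted to all 12 libraries in edgeR 4.0.16 (R 4.3.3), for 5 comparisons with Benjamini-Hochberg adjustment over 16523 genes. SE was taken as |log2 fold change|/√F. The fit was tested on simulated data. FPKM was used to set levels of genes beside each other. Alternatives were DESeq2 1.42.0, limma 3.58.1 (voom, and log2 of FPKM plus a pseudocount), other scalings and filters, a replicate block and left-out libraries. For 3 libraries against 3 the smallest exact permutation p is 0.1, so single values were not tested that way. Total counts are given with the libraries, and each group holds 3 of them. All 28 genes matched GENCODE M21 by symbol, ID and coordinates, and their counts equalled the sum of their transcripts' counts in 336 of 336 values. Shared words are 75-base stretches of a gene's main transcript found in transcripts of other genes. Python 3.11.15 was used for sequences and figures.

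Named are all 28 genes, Lpcat3 as the check of the labels, and from each further list the genes called in any of the 5 comparisons, up to 4 of smallest p; some items are not reported here. The genes and lists were chosen with earlier results of these data known.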

Additional observations from a re-analysis of the deposited data

Results flagged for a closer look

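For 3 of the 28 genes the libraries separated by diet in opposite directions in the 2 genotypes, with every cre MCD library above every cre control library and every flox MCD library below every flox control library. Over all genes tested, 16.4% separated upwards in cre livers and 10.3% downwards in flox livers. The share of all genes that did both is not given, so the count of 3 has no background beside it. The difference of the diet effects, cre minus flox on the log2 scale, was 3.47 for Idi1 (edgeR adjusted p = 0.29), 1.72 for Dhcr7 (adjusted p = 0.21) and 1.44 for Stard4 (adjusted p = 0.36). These separations are in CPM, and on the log2(FPKM + 1) scale the flox change of Stard4 was 0.04. None of the 3 passed that test in edgeR, while DESeq2 called all 3, with adjusted p of 0.00148, 0.000659 and 0.0492.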

How the results depend on the processing

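With other settings the count of genes called higher on MCD in cre livers was 6 in limma on log2(FPKM + 1) with no filter, and 1 to 14 when each library was left out (medians 0.69 to 1.29). Over all genes, calls higher in cre livers were 284 in that limma fit and 177 to 1084 over left-out libraries. The cre median was 1.28 on log2(FPKM + 0.1), and genes called lower in cre livers were 1 (Ggps1) in DESeq2 and 1 (Insig2) with cre MCD 3 (as labelled) and flox control 3 both left out. In flox livers the count called lower was 6 in DESeq2, 1 on either FPKM scale with a filter, 0 on the FPKM scale without one, and 1 to 4 over left-out libraries (medians -0.48 to -0.22). Tmem97 was the 1 gene called higher there on both filtered FPKM scales and with both left out, with 0 to 1 over left-out libraries. The flox median was 0.13 on each of the 3 FPKM scales, beside all-gene medians of 0.30, 0.53 and 0.26, and the cause was not tested. Of all genes called in flox livers 50.2% were higher by counts and 93.2%, 92.6% and 94.4% on the FPKM scales, and in cre livers 55.1%, against 78.5%, 78.5% and 73%. For the cre minus flox difference, calls were 11 in DESeq2, 1 (Fdps) with no filter, 0 to 1 over left-out libraries (Fdps, adjusted p = 0.0238 in edgeR without cre control 3), with medians of 1.21 to 1.77 and of 1.08 on log2(FPKM + 1) with or without a filter. With cre MCD 3 and flox control 3 both left out its median was 1.2. For cre against flox on MCD, calls were 9 in DESeq2, 2 (Fdps, Dhcr7) with no filter, 1 (Dhcr7) with DESeq2 size factors, in limma voom and with both left out, and 0 to 1 over left-out libraries (medians 0.77 to 1.06). On the control diet calls were 0 to 0 (medians -0.63 to -0.25). Over all genes DESeq2 called 851 higher and 817 lower in flox livers, where edgeR called 437 and 434, and 1251 and 1001 in cre livers, where edgeR called 616 and 502. With the replicate number as a block, 14 pathway genes were called higher in cre livers and 3 lower in flox livers. For the difference 0 of them were called. Calls over all genes rose as well in that fit, to 1043 higher and 962 lower in cre livers, from 616 and 502 without the block. In flox livers they were 546 higher and 500 lower, from 437 and 434. The count of 14 is therefore not particular to the pathway. Whether the replicate numbers pair the samples cannot be told from the correlations. Of 18 same-numbered pairs from different groups, 7 had a correlation over 0.1 (-0.0407 to 0.476), and differently numbered pairs are not given beside them. Of 3052 gene-level values under other settings 0 reversed a call, 80 gained one, 48 lost one and 108 changed sign without a call in either setting.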
